A study of Mus musculus with 2 samples.

Results

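The 3 mouse genes of the GA-binding protein (GABP) complex, Gabpa, Gabpb1 and Gabpb2, were examined for ELF1 binding in B-lymphoma cells. They were chosen by name, as 3 of the 21141 protein-coding genes with a RefSeq start used here, and every peak whose summit lay within 50 kb of any of their annotated starts was taken, 8 of the 29086 peaks of the optimal list. The data come from chromatin immunoprecipitation followed by sequencing (ChIP-seq) with an antibody to ELF1 in CH12.LX, an immortalized female B-cell lymphoma mouse line of unknown age from strain B10.H-2aH-4bp/Wts. The labels name no treatment or genetic change. The 2 biological replicates form 1 group, and both come from the same line. No second condition exists, so every comparison below is a description without a p-value.

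GABP is an ETS-family transcription factor made of α and β subunits. The α subunit carries the ETS domain that contacts DNA at a GGAA core, whereas the β subunits do not bind DNA and bring ankyrin repeats, which hold α, and the segment that activates transcription. The complex is also known as nuclear respiratory factor 2 for its sites in nuclear genes of mitochondrial proteins, and in mouse B cells it has been described at genes such as Pax5 and Cd79a. ELF1 belongs to the same ETS family and recognises the same GGAA core.

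Peak positions were available in 6 deposited lists. The optimal and conservative lists (29086 and 27399 peaks, mm10) and the mm9 list (18804 peaks) were made from both replicates together, while each replicate had its own relaxed mm10 list of 300000 entries that holds peaks and background alike. A pooled relaxed list of the same length also exists. The peak signal is the caller's own value on a scale that the sources used here do not give, so it was ranked within a list and compared between lists only as a description. Read depth is unknown. Of the cell type markers, 10 of 10 B-cell genes had an optimal peak within 1 kb of a start, against 1 of 6 T-cell, 0 of 5 myeloid and 0 of 4 hepatocyte genes. Over all genes the share was 42.3%. The weakest of the 10, Pax5, had 4.249 and 8.07 in replicates 1 and 2. The T-cell gene Cd3d, without an optimal peak, had 7.83 and 10.96. These lists and some of the starts were settled with results of these data known, so the counts are no independent check of the cell type.

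All 3 genes had an optimal peak within 1 kb of a start, where 42.3% of the 21141 genes did, and all 3 had one within 50 kb, where 70.7% did. The sequences at these starts are shown first because the summits described below fall in or beside them. They are RefSeq promoter windows of assembly GRCm38.p6, each 300 bases long, printed along the strand of the gene, with every GGAA, the ETS core, and its reverse complement TTCC in capitals. The Gabpa window is chr16:84834874-84835173 on the plus strand, the window of the second Gabpb1 start is chr2:126675303-126675602 on the minus strand, and the Gabpb2 window is chr3:95217893-95218192 on the minus strand.
Gabpa promoter: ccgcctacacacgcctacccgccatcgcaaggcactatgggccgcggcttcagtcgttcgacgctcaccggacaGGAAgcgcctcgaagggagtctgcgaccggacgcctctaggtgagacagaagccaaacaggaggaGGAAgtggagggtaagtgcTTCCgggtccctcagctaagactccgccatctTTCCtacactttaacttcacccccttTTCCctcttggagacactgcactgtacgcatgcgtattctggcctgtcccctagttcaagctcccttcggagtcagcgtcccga
Gabpb1 promoter: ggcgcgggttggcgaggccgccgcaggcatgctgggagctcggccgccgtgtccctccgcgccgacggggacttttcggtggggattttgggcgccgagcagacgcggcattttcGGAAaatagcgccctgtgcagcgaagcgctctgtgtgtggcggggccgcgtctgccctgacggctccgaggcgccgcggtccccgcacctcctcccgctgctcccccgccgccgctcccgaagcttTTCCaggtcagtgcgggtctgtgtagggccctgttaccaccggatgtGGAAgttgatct
Gabpb2 promoter: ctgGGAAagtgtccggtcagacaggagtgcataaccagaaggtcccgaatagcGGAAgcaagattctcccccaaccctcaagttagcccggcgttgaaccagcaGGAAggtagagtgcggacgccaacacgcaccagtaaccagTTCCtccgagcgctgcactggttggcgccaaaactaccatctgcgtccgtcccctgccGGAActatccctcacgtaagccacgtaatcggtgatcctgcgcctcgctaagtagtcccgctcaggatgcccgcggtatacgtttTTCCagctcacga

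GGAA was counted on both strands, and this word is common. It occurred in 95.8% of 21263 promoter windows of protein-coding genes, with a median of 3 occurrences. The Gabpb2 window held 6 (15.6% of all windows hold at least as many), the Gabpa window 5 (28.1%), and the windows of the first and second Gabpb1 starts 4 and 3 (45.5% and 65.6%). The longer word CCGGAAGT, which contains GGAA, occurred in 5.15% of all windows and in none of the members' windows. CCGGAA, a part of that longer word, was present once in the Gabpa window, once in the window of the first Gabpb1 start and once in the Gabpb2 window, where 18.7% of all windows hold it. AGGAAG, which also contains GGAA, occurred 2 times in the Gabpa window (7.85% of all windows hold at least as many) and once in the Gabpb2 window (34.4% hold it). Neither Gabpb1 window held it. Only GGAA and CCGGAAGT were planned, and CCGGAA and AGGAAG were added to them. The share of G and C was 59.3% for Gabpa, 71.3% and 69.7% for Gabpb1 and 58.0% for Gabpb2, against a median of 56.3% over all windows. Gabpa and Gabpb2 were thus near that median. The members' windows held 22, 37, 37 and 24 CpG dinucleotides in that order, against a median of 13. These words say what letters are present and not that ELF1 is bound at them.

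Gabpa, on chromosome 16, encodes the DNA-binding α subunit. It had 2 peaks in the optimal list, and nothing else lay within 50 kb of it. The stronger, chr16:84834761-84835107 (mm10), had its summit at 84834945 and a signal of 357.7, which placed it 643rd of the list, in its top 2.21%. Replicate 1 had a summit at 84834949 with a signal of 166.5, and replicate 2 a summit at 84834939 with 193.2. Both replicates therefore placed it within 10 bp of each other, and their signals differed by 1.16 times, 0.21 on the log2 scale. The summit lay 179 bp upstream of the RefSeq start 84835124, 54 bp inside the gene's outermost annotated end 84834891, and 31 bp inside Atp5j from its start at 84834976.

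Atp5j, which encodes coupling factor 6 of the mitochondrial ATP synthase, is transcribed the other way from the same stretch. Its start at 84834976 lies 85 bp downstream of the outermost Gabpa end, and another start at 84835625 lies 501 bp downstream of the listed Gabpa start, so that the 5′ ends of the genes overlap. The second Gabpa peak, chr16:84835441-84835804, sat on that other start. Its summit at 84835623 was 2 bp from the Atp5j start and 499 bp downstream of the Gabpa start, with a signal of 63.44 and rank 8958. Replicate 1 had 32.07 at 84835574 and replicate 2 had 32.05 at 84835646, a ratio of 0.999 with the summits 72 bp apart. The upstream summit was the stronger in every list, by 5.64 times in the optimal list, 5.19 times in replicate 1 and 6.03 times in replicate 2. Both peaks lie within 1 kb of starts of Atp5j and of Gabpa, and no value here assigns either to 1 gene.

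Within the Gabpa window printed above, the optimal summit fell at base 72 and that of replicate 1 at base 76. A GGAA occupies bases 75 to 78, which put it 3 bp from the optimal summit and under the replicate 1 summit. The replicate 2 summit was at base 66. The same window matched the mm9 genome exactly at chr16:84835119-84835418 (assembly NCBIM37), and the mm9 summit 84835217 fell at base 99, inside it. That peak, chr16:84834973-84835390 (mm9), had a signal of 782.6 and rank 503 of 18804. In GENCODE M1 its summit lay in a UTR exon of 2 of 6 Gabpa transcripts. It lay inside 7 of 12 Atp5j transcripts, in an exon of 6 of them, marked as UTR in 2. The second mm9 peak, chr16:84835692-84836067, had its summit at 84835880, a signal of 85.28 and rank 7990, inside 3 of 6 Gabpa transcripts but in none of their exons. The same summit lay 10 bp upstream of an Atp5j start at 84835870, so it is intronic for Gabpa but at the promoter of Atp5j. The stretch of the minus strand nearest this summit, chr16:84835871-84835900 (mm9), has a GGAA 4 bp from it.
Gabpa intronic summit: ccggggacccagcGGAAacaaaacacagag

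**Figure D1:**
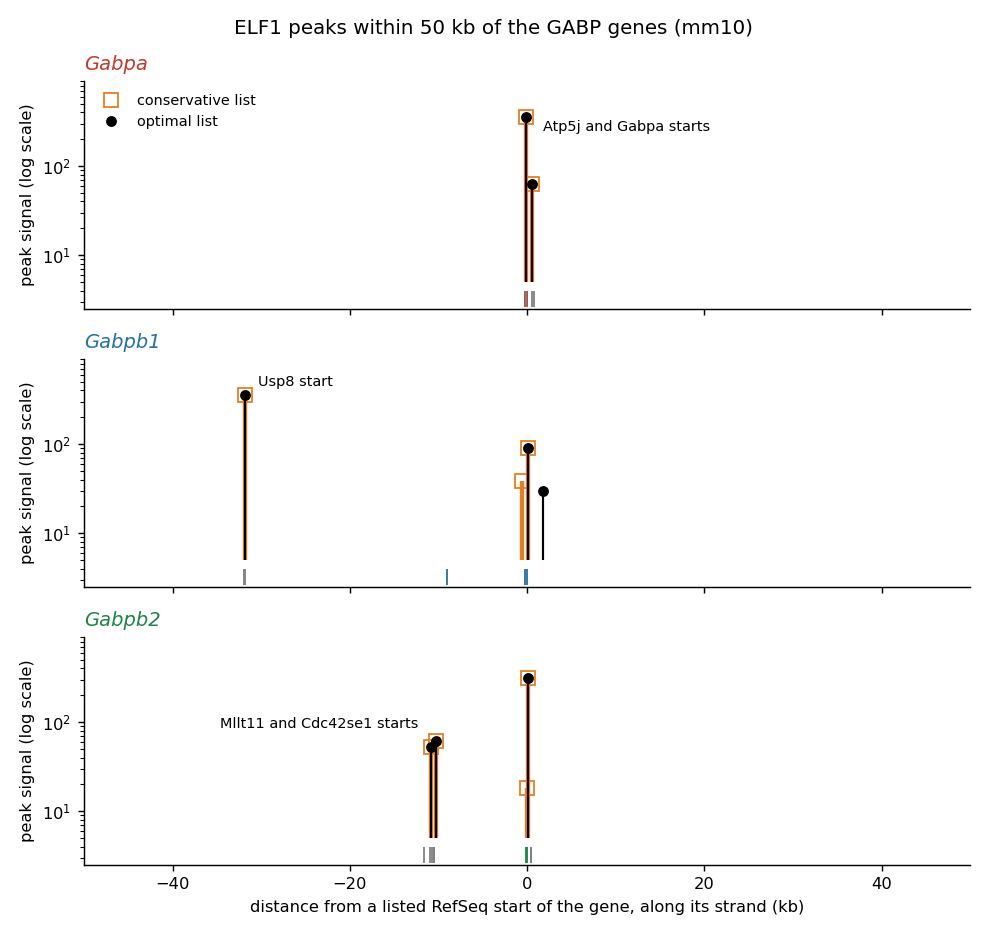
Peak signal (log scale) of ELF1 peaks against the distance from a listed RefSeq start of each gene, along its strand, in the optimal list (black circles) and the conservative list (orange squares); ticks at the foot mark RefSeq starts, in colour for the named gene and grey for neighbours. Gabpa had its 2 peaks where its starts and those of Atp5j lie together. Gabpb2 had its strongest at its own start, and Gabpb1 its strongest (352.0) at Usp8, 31.6 kb upstream of the first listed start.

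Gabpb2, on chromosome 3, encodes a β subunit. Its promoter peak, chr3:95217638-95217996 (mm10), had a summit at 95217807, 135 bp inside the gene from the RefSeq start 95217942, with a signal of 314.7 and rank 983. Replicate 1 had 168.8 at 95217809, whereas replicate 2 had 154.4 at 95217908. The signal of replicate 2 was 0.915 times that of replicate 1, -0.13 on the log2 scale, and both were among the strongest 1318 entries of their lists.

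The replicates' summits at Gabpb2 were 99 bp apart. Of the 837 promoter peaks at least as strong, the median distance between replicate summits was 7 bp, and 1 of the 837, Gabpb2 itself, had a distance this large. The replicate 2 summit lay 101 bp from the optimal summit, so that with a limit of 100 bp the peak was not counted as shared, although both replicates covered it. In the conservative list a second, weak peak was called beside it, chr3:95217829-95218192, with a signal of 18.05 and rank 25325 of 27399. Its summit at 95218011 lay 69 bp upstream of the listed start and 99 bp inside the gene's outermost annotated end 95218110. Replicate 1 had no summit inside this weak peak, the nearest being 202 bp from its summit. The only replicate 2 summit inside it was the main one, 95217908, 103 bp away. In the printed window the replicate 2 summit fell at base 285 and the weak conservative summit at base 182, and the optimal summit fell 86 bp past the window's end. A TTCC at bases 288 to 291 thus stood beside the replicate 2 summit.

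Gabpb2 also has a partner at its start. The long noncoding RNA gene Gm16740, transcribed the other way, starts at 95217457, 485 bp inside Gabpb2, and the optimal summit lay 350 bp inside it. Replicate 2 had a further entry at 95217297, with a signal of 24.02 and rank 14657, on the other side of that start. Upstream, a pair of peaks stood at the head-to-head promoters of Cdc42se1, which encodes a small CDC42 effector, and Mllt11. The one with its summit at 95228278 had a signal of 61.04 (27.95 in replicate 1 and 34.4 in replicate 2), 10.3 kb upstream of the Gabpb2 start. The one at 95228758 had 52.82 (27.55 and 26.87) and lay 10.8 kb upstream. Each was nearer to a start of Cdc42se1 or Mllt11, at 146 bp and 81 bp, than to Gabpb2.

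The mm9 list differed at Gabpb2. It held no peak within 1 kb of any of its 8 distinct GENCODE M1 starts, whereas Gabpa and Gabpb1 each had 2, and 36.7% of 22380 mm9 genes had at least 1. The printed Gabpb2 window is nevertheless present in the mm9 genome, with 1 exact match at chr3:95021815-95022114. Among genes in both annotations, 53 of the 857 whose optimal promoter peak was at least as strong as that of Gabpb2 (6.18%) lacked an mm9 promoter peak, against 1232 of the 7150 weaker ones (17.2%). The pair near Cdc42se1 and Mllt11 was called in mm9 too, at 95032194 with a signal of 91.68 and at 95032680 with 51.58. A further mm9 peak, at 94964063 with a signal of 38.17 and rank 17732, lay 316 bp upstream of Sema6c, a semaphorin gene. It was 31.8 kb downstream of 94995820, the GENCODE M1 start farthest inside Gabpb2. The mm10 starts used for Gabpb2, 95217942 and 95218110, include no such internal start. Its place within 50 kb therefore rests on the annotation and does not show a peak particular to mm9.

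Gabpb1, on chromosome 2, encodes the other β subunit. Its promoter peak, chr2:126675089-126675452 (mm10), was the weakest of the 3 main promoter peaks. It had a summit at 126675271, a signal of 89.33 and rank 6341, 81 bp inside the gene from the start 126675352 and 321 bp from the start 126675592. Replicate 1 had 39.83 at 126675260 and replicate 2 had 50.83 at 126675271, a ratio of 1.28 with the summits 11 bp apart. The RefSeq gene also reaches an outermost end at 126684435, and no optimal peak lay within 1 kb of that end. Among the RefSeq starts used here, which do not cover every gene, none of another gene lay within 1 kb of the Gabpb1 starts.

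Beside this peak the optimal and conservative lists differed. The conservative list called a second summit at 126675978, chr2:126675796-126676159, 386 bp upstream of the first start, with a signal of 38.9 and rank 14748, and replicate 1 (17.65 at 126675925) and replicate 2 (22.32 at 126675981) both had an entry there. The optimal list instead held a peak 1757 bp inside the gene, chr2:126673413-126673776, with a summit at 126673595, a signal of 29.5 and rank 19317. Replicate 2 had 22.41 at 126673603. Replicate 1 had 2 entries with summits inside that peak, 10.64 at 126673445 (rank 26302) and 4.868 at 126673647 (rank 106879). Replicate 2 over replicate 1 was therefore 2.11 with the stronger entry and 4.60 with the one within 100 bp of the optimal summit, against 1.27 at the upstream summit.

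The optimal summit at the Gabpb1 start fell 32 bp past the end of its printed window, 40 bp from the nearest GGAA in it, at bases 289 to 292. In mm9 the window matched exactly at chr2:126501039-126501338, and the peak chr2:126500888-126501077 had its summit at 126500996, 43 bp past the end of that match, with a signal of 125.7 and rank 5508. In GENCODE M1 it lay inside 12 of 13 Gabpb1 transcripts and in none of their exons. Within 50 bp of this summit there were 5 GGAA and 2 CCGGAA, counted on both strands, with the nearest 7 bp away. Over all 18804 mm9 summits, 92.6% had at least 1 GGAA and 26.2% at least 1 CCGGAA within 50 bp. The share holding as many as 5 or 2 was not computed. The Gabpa summits 84835217 and 84835880 had 2 and 3 GGAA, and 0 and 1 CCGGAA. The other Gabpb1 summit in mm9, 126501714 with a signal of 43.73, had 2 GGAA and 0 CCGGAA. The minus strand at 126500996, chr2:126500990-126501019 (mm9), and at the other Gabpb1 summit, chr2:126501711-126501740, reads as follows. This other summit lay 359 bp inside the 1 of 13 transcripts that begins at 126502073, in none of its exons, and upstream of the other Gabpb1 starts.
Gabpb1 main summit: TTCCacTTCCcccGGAAcccagatcatccc
Gabpb1 second summit: cTTCCgcctgccgGGAAtctgctagaacac

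The strongest optimal peak within 50 kb of Gabpb1 belonged to Usp8, the gene of a deubiquitinating enzyme. It had a summit at 126707225, 24 bp inside the outermost Usp8 end, with a signal of 352.0 and rank 682. It had 168.1 in replicate 1 and 185.3 in replicate 2, and it exceeded the Gabpb1 promoter peak by 3.94 times in the optimal list, 4.22 times in replicate 1 and 3.65 times in replicate 2. Along the Gabpb1 strand it stood at -22.8 kb from the outermost Gabpb1 end, the nearest annotated start, and it lay 31.6 kb from the first listed start.

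**Figure D2:**
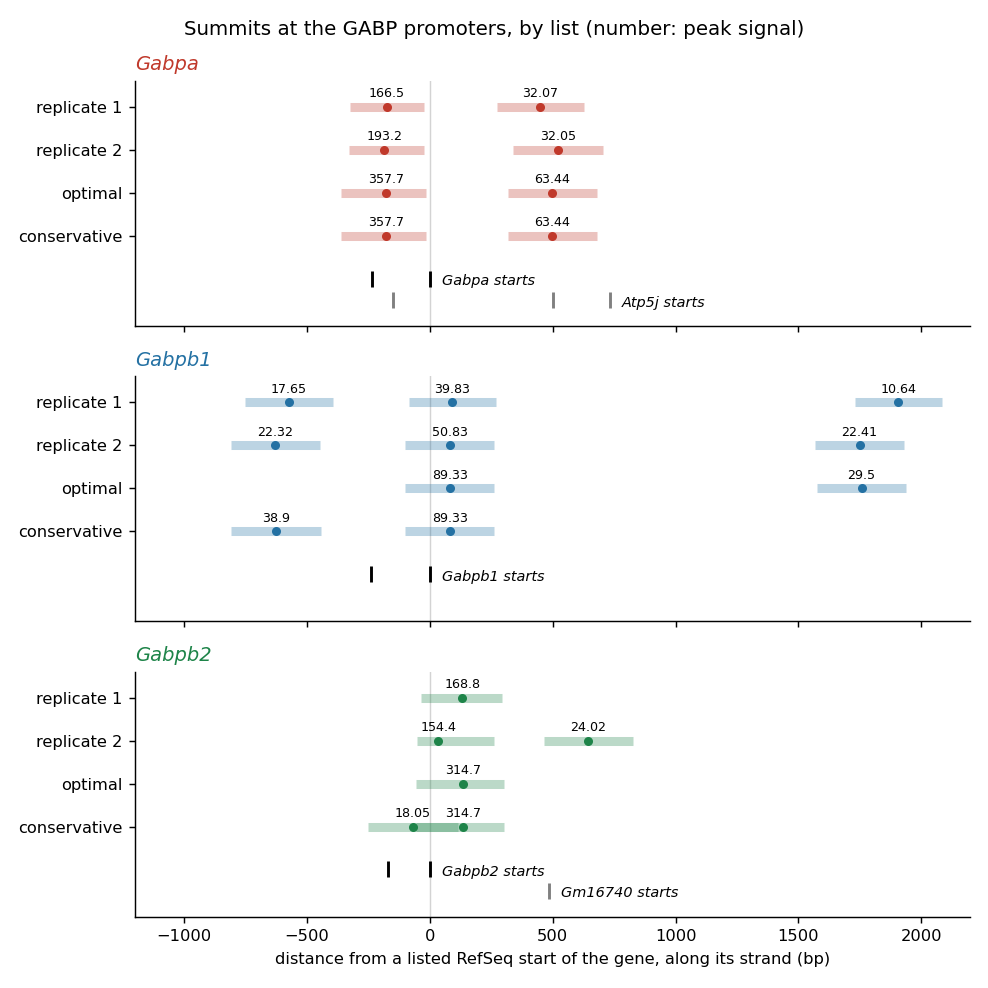
Summits (points) and peak extents (bars) near the start of each gene by list, on a scale of bp from a listed RefSeq start along the gene's strand, with the peak signal above each point; the relaxed replicate lists are limited to as many of their strongest entries as the optimal list has. Ticks mark RefSeq starts of the gene (black) and its neighbour (grey). The replicates' main summits are 10 bp apart at Gabpa, 11 bp at Gabpb1 and 99 bp at Gabpb2.

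Set in order, the promoter signals of the α gene and of Gabpb2 were near the top of all bound genes and that of Gabpb1 was near the middle. Among the 8950 genes with an optimal promoter peak, Gabpa was 647th, with 92.8% of them below it, Gabpb2 983rd (89.0% below) and Gabpb1 4772nd (46.7% below). The median over these genes was 97.8 and the quartiles 47.47 and 200.2. The Gabpa and Gabpb2 signals exceeded that of Gabpb1 by 4.01 and 3.52 times in the optimal list, 4.18 and 4.24 times in replicate 1 and 3.80 and 3.04 times in replicate 2. Gabpb2 over Gabpa was 1.01 in replicate 1 and 0.799 in replicate 2, so the order of these neighbours was not the same in both replicates, whereas Gabpb1 was lowest in both.

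The order was the same in the conservative list. All 3 genes had a conservative promoter peak, where 41.7% of genes did, with 92.6%, 88.8% and 45.8% of the bound genes below Gabpa, Gabpb2 and Gabpb1. All 3 also had one among the strongest entries of replicate 1, where 42.8% did, and of replicate 2, where 43.2% did. In the mm9 list 94.0% of 8223 bound genes were below Gabpa and 45.9% below Gabpb1. The number of optimal peaks within 50 kb was 2 for Gabpa, 3 for Gabpb1 and 3 for Gabpb2, against a median of 2 over all genes.

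Replicate 2 over replicate 1 was 1.16 at Gabpa, 0.915 at Gabpb2 and 1.28 at Gabpb1, against a median of 1.29 over 7840 promoter peaks with an entry in both replicates and 1.15 over the 837 strong ones. On the log2 scale the ratio was 0.21 at Gabpa, -0.13 at Gabpb2 and 0.35 at Gabpb1, against 0.36 (SD 0.54) over all these peaks and 0.20 (SD 0.16) over the strong ones. Gabpb2 was thus at the low end of peaks of its strength, at -2.08 SDs from their median, and 9 of the 837 (1.08%), Gabpb2 included, had a ratio as low. By closeness of their log2 signals in the 2 replicates, the genes most like Gabpa were Tnks (a poly-ADP-ribosyltransferase), Zfp622 and Sft2d1, those most like Gabpb1 were Hint3, Ift43 (of intraflagellar transport) and Hes6, and those most like Gabpb2 were Ercc6l2, Fbl (fibrillarin) and Slx4 (a scaffold of DNA-repair nucleases). The distances were 0.017 to 0.020 for Gabpa, 0.013 to 0.017 for Gabpb1 and 0.055 to 0.073 for Gabpb2, and likeness here rests on 2 replicate values per gene.

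**Figure D3:**
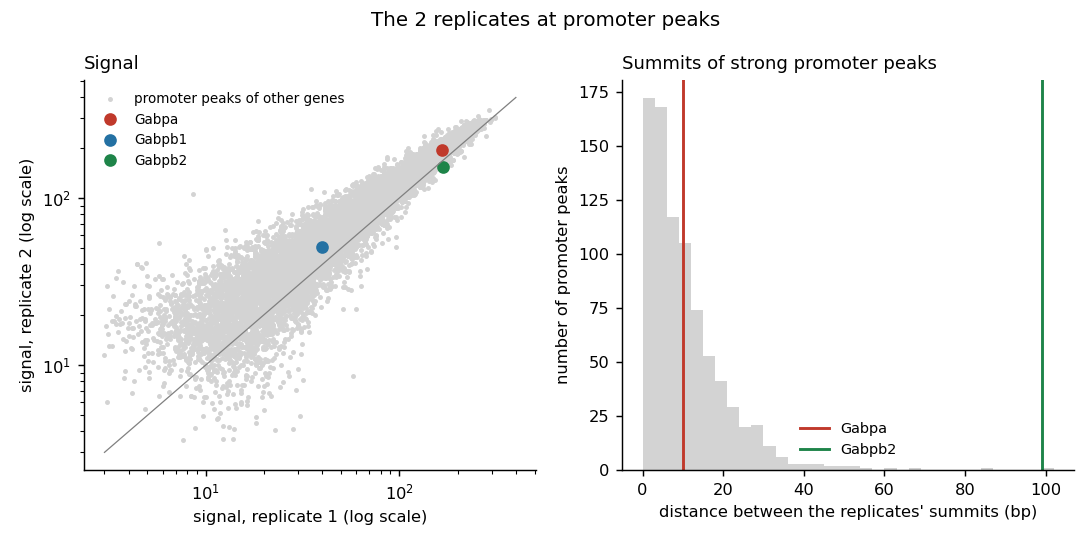
Left, signal in replicate 1 against replicate 2 (both log scale) for promoter peaks of all genes (grey) and of the 3 GABP genes (coloured), with a line of equal signal. Right, number of promoter peaks at least as strong as that of Gabpb2 by the distance in bp between the replicates' summits; Gabpb2, at 99 bp, stands at the far right and Gabpa is at 10 bp.

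Promoter peaks were also counted for genes that work with GABP or that it is described to act on. Of 10 partners and coactivators, 8 had an optimal promoter peak, the strongest being the zinc-finger factor Sp1 (228.0), followed by the nuclear receptor Esrra (113.0), Yy1 (111.2), Pprc1 (101.9), Hcfc1 (95.9), Ep300 (34.94), Nrf1 (33.41) and Ppargc1b (26.46). Ppargc1a, the gene of the coactivator PGC-1α, and Crebbp, which encodes a histone acetyltransferase, had none in the optimal list. The relaxed lists of replicates 1 and 2 held entries of 4.924 and 13.31 at Ppargc1a and of 13.4 and 10.16 at Crebbp. Of 10 genes for transcription and replication of mitochondrial DNA, 10 had one, with a median of 193.8. Polg (506.8), the catalytic subunit of the mitochondrial DNA polymerase, and Polrmt (448.0), the mitochondrial RNA polymerase, were highest, and Tfb1m (88.0) was lowest, with Tfam, which packages mitochondrial DNA, at 167.5. Of 10 cytochrome c oxidase subunit genes, 9 had one, between 118.0 (Cox6a1) and 391.2 (Cox8a). Cox7b had none in the optimal list, with relaxed entries of 7.522 and 16.62 in replicates 1 and 2.

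Among 5 genes described as GABP targets all 5 had an optimal promoter peak, at signals far apart. Itgb2, an integrin chain, had 173.1, Skp2, a ubiquitin ligase subunit, 165.5, and Cd79a, a chain of the B-cell receptor, 93.28, while Il7r (25.1) and Pax5 (15.98), the B-lineage regulator, had 6.53% and 0.905% of bound genes below them. Each of these counts stands beside the 42.3% of all genes with an optimal promoter peak, and no test of a list was made. In the relaxed lists Pax5 had 4.249 in replicate 1 and 8.07 in replicate 2, less than Ppargc1a, Crebbp and Cox7b in both. These are each replicate's strongest entry within 1 kb of a start, and whether both replicates had it at the same site was not checked. The counts therefore say which genes the optimal list called and do not separate presence from absence of signal.

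**Figure D4:**
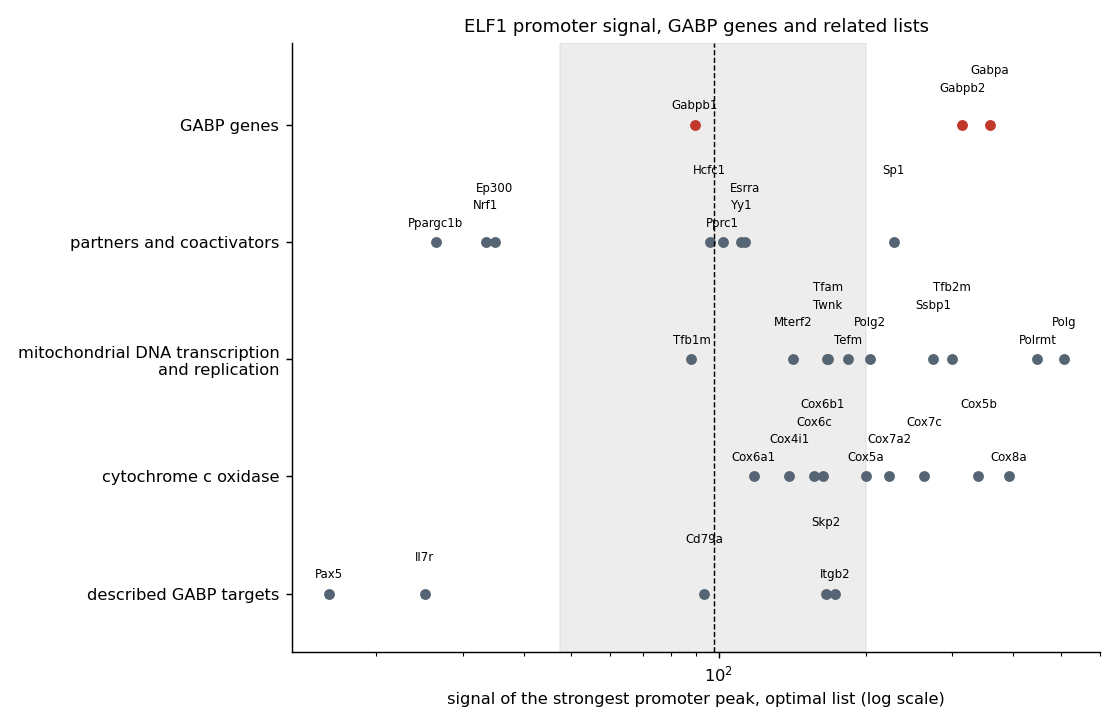
Signal of the strongest promoter peak in the optimal list (log scale) for the 3 GABP genes (red) and the bound genes of 4 related lists (grey); the dashed line and the shaded band mark the median and the quartiles over all 8950 bound genes. Gabpa and Gabpb2 lie above the upper quartile of 200.2 and Gabpb1 just below the median of 97.8.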

How the data were processed

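ELF1 ChIP-seq peaks of 2 replicates of CH12.LX were read from 6 deposited narrowPeak lists, 5 in mm10 and 1 in mm9. The authors' deposited signal (column 7) is the peak caller's value, on a scale that is not given. Per the deposited text the optimal and conservative lists were chosen by the irreproducible discovery rate from the relaxed lists. Neither aligner nor caller is named in them.

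Summits were placed at column 2 plus column 10, written 1-based. mm10 starts were all RefSeq starts (GRCm38.p6) of 17492 genes plus the outermost gene end, and for 3649 further genes the outermost end with a strand from GENCODE M1, an addition made after marker genes were seen to lack a start. mm9 starts were all GENCODE M1 transcript starts. A promoter peak has its summit within 1 kb of a start, and shared summits lie within 100 bp. Replicate entries were compared within 200 bp. The strongest 29086 entries stood for each relaxed list. Genes named are the members, genes starting within 1 kb of a member's start or summit, the 3 genes of nearest replicate signals per member, and the listed genes. Members and lists were chosen with earlier results of these data known. The counting steps were checked on planted peaks. Python 3.11.15, pandas 2.3.3, numpy 2.4.6 and matplotlib 3.10.9 were used.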

Additional observations from a re-analysis of the deposited data

How the results depend on the processing

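Of 89 alternative values 67 stayed within the limits set for them and 22 moved. Counts of peaks near Gabpa, Gabpb1 and Gabpb2 were 5, 5 and 12 within 100 kb. Without replicate 1 or 2 the count near Gabpb1 was 4 to 5. Gabpb1 lost its promoter peak (0) when the outermost gene end was the only start, an alternative added after the data were seen, and Gabpb2 had 0 in the mm9 list. The share of bound genes below Gabpa was 94.0% in the mm9 list, 95.0% in the pooled relaxed list and 94.7% to 95.2% without either replicate. For Gabpb1 it was 63.1% in the pooled list and 62.4% to 64.2% without either replicate, and for Gabpb2 90.1% to 95.4%; relaxed lists give more genes an entry (12921 to 12991, against 8950), which by construction puts more genes below. The share of genes with a promoter peak was 40.2% at 500 bp, 44.4% at 2 kb, 41.7% in the conservative list, 36.7% in mm9, 34.2% for the 14543 strongest optimal peaks, 42.8% to 43.2% without either replicate and 39.1% with outermost ends only, also added afterwards. No paired analysis was possible because there is 1 group. With the planned limit of 100 bp, 2, 3 and 2 optimal peaks had an entry in both replicates at Gabpa, Gabpb1 and Gabpb2. At Gabpb1 the count was 2 with a limit of 50 bp or with the strongest entries only, and at Gabpb2 it was 3 at 200 bp. Counting replicate entries with a summit inside the peak, also chosen after the data were seen, gave 2, 3 and 3. Depth is unknown, and 2 replicates of 1 line limit the precision of every value.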

Other observations

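Beyond the called peaks, the pooled relaxed list held weak entries around each gene within 50 kb. There were 40 near Gabpa, of which 5 had an entry in both replicates within 100 bp and the highest signal was 16.97 (rank 38513). Near Gabpb2 there were 20, with 2 in both replicates and a highest signal of 18.82 (rank 33809), and near Gabpb1 18, with 1 in both and a highest signal of 11.52. Their median signals were 7.74 near Gabpa, 8.06 near Gabpb2 and 7.31 near Gabpb1. The relaxed lists hold background too, and the share of all their weak entries found in both replicates was not computed. The counts in both replicates therefore cannot be read as particular to these genes.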
